A study of Danio rerio with 24 samples.

Results

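Primordial germ cells (PGCs), the cells of the embryo from which eggs and sperm descend, were compared at 75% epiboly, during zebrafish gastrulation, between embryos injected with a morpholino against smad1 and embryos injected with a control morpholino. A morpholino is an antisense oligomer that blocks translation or splicing of its target transcript. The 2 knockdown (KD) libraries and the 2 control-morpholino (control-MO) libraries of this stage were taken by their labels, 4 of the 24 samples of the series. All 4 came from embryos of wild-type (WT) genotype raised in Holtfreter's water, and the injections were control-MO and smad1-MO. The PGCs were sorted by a fluorescent label carried by transgenic embryos, and their RNA was amplified as full-length cDNA with a kit made for single cells. An injected morpholino is shared by all cells of the embryo, so the PGCs and the tissues around them were exposed alike. The comparison bears on how BMP signalling acts in PGCs, whose proliferation the study set out to examine.

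BMP ligands form a gradient along the dorsoventral axis of the gastrula. On the receiving cell they activate receptor kinases, which phosphorylate Smad1, Smad5 and Smad9, and these enter the nucleus with Smad4 to switch on ventral genes, Id genes and feedback inhibitors. Chordin and Noggin, secreted by the dorsal organizer, keep ligand from the receptors. In zebrafish, PGCs are set aside by inherited germ plasm, and the chemokine Cxcl12 guides their migration during gastrulation.

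No gene passed the test between KD and control-MO PGCs: of the 12968 genes tested, 0.0% were called by limma with Benjamini-Hochberg adjustment at 0.05. Levels are TPM, the share of transcripts scaled for length, and differences are KD minus control-MO on the log2(TPM + 1) scale. Means called lower or higher in the KD, and counts of lower and higher genes, go by that scale and not by mean TPM. The genes tested are those with a mean of at least 1 TPM over the 4 libraries, out of 32520 in the table. At an unadjusted p under 0.05 there were 122 lower genes (0.941%) and 42 higher genes (0.324%). Both KD libraries lay below both control-MO libraries for 1935 genes (14.9%), and above them for 956 genes (7.37%). The adjusted p was 1.00 for every gene named here in this comparison, so differences below are described by their library values and not as changes. With 2 libraries a group, an exact permutation test of a single value cannot go below p = 0.333, and since no label tells the clutches apart, the spread between libraries may be technical.

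The 4 libraries differed widely from each other. The read depth is unknown, because TPM keep none; the number of genes listed above 0 lay between 14743 and 18508 per library. In Pearson correlations across the genes tested, on the log2 scale, the 2 control-MO libraries correlated at 0.901, and the 2 KD libraries at 0.787, the lowest value among the 6 pairs. Relative to control-MO replicate 1 and replicate 2, the median of all genes was 0.17 and 0.48 in KD replicate 1 and -0.57 and -0.20 in KD replicate 2. The median difference between the groups was -0.06, and 54.8% of genes were lower in the KD.

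The sorted cells carried germ cell markers, and other embryonic tissues were represented as well. The summed level of 6 germ cell markers (nanos3, ddx4, dnd1, tdrd7a, dazl, ca15b) was 726 and 972 TPM in the control-MO libraries against 1464 and 736 TPM in the KD libraries, and none of the 6 was at 0 in any library. In the sorted PGCs of the knockout experiment at the same stage, the same 6 genes summed to between 4104 and 32510 TPM. The 8 enveloping layer and epidermis markers summed to 1649 and 77.9 TPM in the control-MO libraries against 257 and 43.7 TPM in the KD libraries, so control-MO replicate 1 stood apart. The 6 yolk syncytial layer markers summed to 2089 and 1164 TPM in the control-MO libraries against 585 and 474 TPM in the KD libraries, but apoeb made up almost all of each sum and was the 1 marker of the 6 lower in both KD libraries. The endoderm markers sox32 and sox17 summed to 177 and 23.7 TPM in the control-MO libraries against 2.60 and 3.71 TPM in the KD libraries, with sox17 at 0 in KD replicate 1. Of 3 blood markers, gata1a and tal1 were at 0 in all 4 libraries. In such bulk samples, fewer cells of a type and less RNA per cell cannot be told apart, and the part of these markers in the results was not tested. Where levels are given in control-MO, KD or cKO PGCs, the name is that of the sorted samples. Which cells a transcript came from was not tested.

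**Figure D1:**
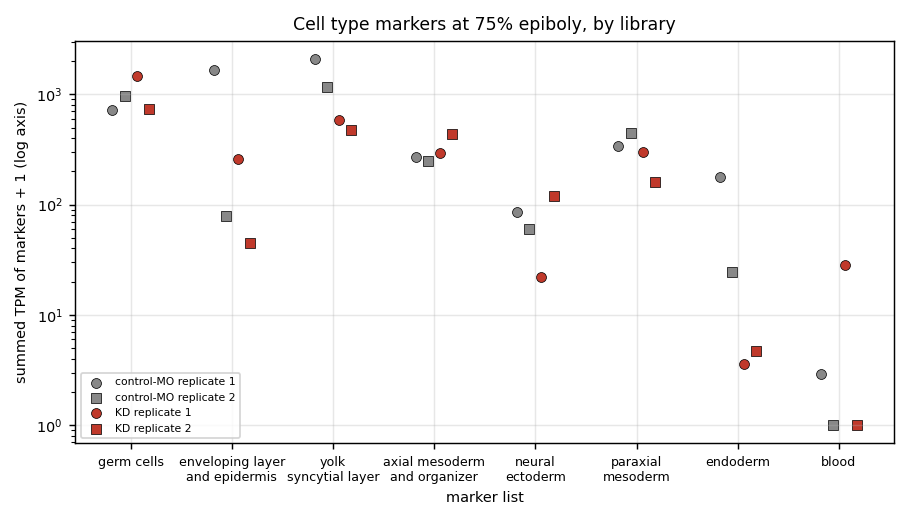
Summed TPM of 8 marker lists in the 2 control-MO (grey) and 2 KD (red) libraries at 75% epiboly, on a log axis with 1 added; circles are replicate 1 and squares replicate 2. The germ cell sums overlap between the groups. The sum of the endoderm markers sox32 and sox17 is lower in both KD libraries, as is the yolk sum, which is almost all apoeb. Control-MO replicate 1 is highest for the enveloping layer and epidermis.

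The transcript of the targeted gene was lower in both KD libraries. The smad1 level (ENSDARG00000027199) was 9.96 and 9.80 TPM in the control-MO libraries and 2.60 and 4.23 TPM in the KD libraries (a log2 difference of -1.33, SE 0.79). The groups did not overlap. A morpholino need not lower the amount of the transcript it binds, so this level is no measure of the remaining protein.

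Among the other Smads, smad9 showed the lowest unadjusted p of its list. The smad9 level (ENSDARG00000021938), which encodes the third receptor-regulated Smad of the BMP branch, was 58.2 and 45.8 TPM in control-MO and 16.9 and 6.18 TPM in KD PGCs (a log2 difference of -2.21, SE 0.66). Both KD libraries lay below both controls, and smad9 was higher per transcript length than smad1 in every one of the 4 libraries. The smad5 level was 117 and 81.1 TPM in control-MO and 149 and 66.1 TPM in KD PGCs, where the groups overlapped (a log2 difference of 0.03, SE 0.53). The inhibitory Smads, which are themselves BMP targets, were low throughout: smad6a stood at 7.74 and 3.83 TPM against 0.803 and 1.76 TPM and smad7 at 13.1 and 4.39 TPM against 1.83 and 3.22 TPM, both without overlap. The common partner smad4a (21.4 and 19.6 against 20.6 and 15.0 TPM) and the Nodal-branch smad2 (16.0 and 12.08 against 23.8 and 8.46 TPM) overlapped between the groups. Of 12 Smad genes, 8 passed the filter, with a median difference of -1.20, and -0.64 without control-MO replicate 1. In 4 of the 8 (50.0%, against 14.9% of all genes) both KD libraries lay below both controls. The 4 were the targeted smad1 itself, smad9, smad6a and smad7.

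The ligand genes bmp7a and bmp2b, which build the ventral gradient, were lower in both KD libraries. The bmp7a level was 41.2 and 9.46 TPM in control-MO and 2.71 and 4.28 TPM in KD PGCs (a log2 difference of -2.25, SE 0.86). The bmp2b level, whose product pairs with Bmp7 in the zebrafish gastrula, was 25.2 and 9.95 TPM against 4.94 and 2.54 TPM (a log2 difference of -1.89, SE 0.81). Neither gene overlapped between the groups, and for both the higher control was replicate 1. The bmp4 level was 21.4 and 4.75 TPM against 12.5 and 2.95 TPM, with overlap. The opposite order was seen for gdf3, which encodes the maternal Vg1 ligand that works with Nodal: 76.8 and 56.1 TPM in control-MO and 284 and 96.0 TPM in KD PGCs (a log2 difference of 1.32, SE 0.57), again without overlap. The dorsally made ligand gene admp stood at 7.49 and 10.6 TPM in control-MO and at 2.45 and 90.2 TPM in KD PGCs, so the 2 KD libraries lay on either side of the controls. Of 16 ligand genes, 6 passed the filter, 4 with a lower and 2 with a higher mean in the KD.

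Receptor genes were split evenly between the directions. Of the 14 receptor and co-receptor genes tested, 7 were lower and 7 higher in the KD, with a median of -0.0049 (0.37 without control-MO replicate 1). The type I receptor gene bmpr1aa, the most abundant of them, stood at 47.5 and 32.0 TPM against 31.0 and 35.6 TPM. The acvr1l level, which encodes the other type I receptor that ventral signalling in zebrafish needs, was 24.3 and 9.87 TPM against 23.9 and 17.6 TPM. In both genes the groups overlapped. The only receptor with both KD libraries below both controls was bmpr1ab (8.41 and 11.0 TPM against 5.60 and 4.87 TPM). That is 7.14% of the list, against 14.9% of all genes.

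Of 10 antagonists and modulators tested, 6 were lower and 4 higher in the KD, with a median of -0.87 (-1.49 without KD replicate 2). The ventral feedback inhibitor szl (Sizzled, which blocks the proteases that cut Chordin) was 67.6 and 10.9 TPM in control-MO and 1.08 and 0.637 TPM in KD PGCs (a log2 difference of -3.95, SE 0.95). The pseudoreceptor gene bambia was 212 and 116 TPM against 38.0 and 15.1 TPM (a log2 difference of -2.65, SE 0.59). In both genes the KD libraries lay below the controls, although szl differed widely between the 2 controls. The Chordin protease gene bmp1a (7.88 and 11.2 against 4.33 and 2.75 TPM) and bmper, which binds BMPs outside the cell (23.5 and 12.9 against 8.66 and 6.44 TPM), were likewise lower in both KD libraries. The organizer antagonist gene chrd was 16.4 and 26.3 TPM in control-MO and 0.599 and 127 TPM in KD PGCs, and nog1 was 7.77 and 3.89 TPM against 0 and 110.1 TPM. For both organizer genes KD replicate 1 was the lowest and KD replicate 2 the highest of the 4 libraries.

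Most BMP target genes had lower means in the KD. The list was chosen, like the others, with earlier results of these data known. The gene bambia belongs both to this list and to that of the antagonists and modulators, so the lists are not independent. The target list joins 5 Id genes with 34 ventral and feedback genes, and 32 of them passed the filter. Of these, 28 were lower and 4 higher in the KD, and the median difference was -1.37 against -0.06 over all genes. In 18 (56.2%) both KD libraries lay below both controls, against 14.9% of all genes, and 9 had an unadjusted p under 0.05 and a lower level, against 0.941%; 0 were called. The list median was -1.85 and -0.63 for KD replicate 1 against control-MO replicates 1 and 2, and -1.99 and -0.80 for KD replicate 2, below the median of all genes in each pair. Without control-MO replicate 1 it was -0.77.

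Among the ventral homeobox repressors of this list, ved was the most abundant. The ved level was 969 and 668 TPM in control-MO and 347 and 113 TPM in KD PGCs (a log2 difference of -2.01, SE 0.52). The related vox gene was 104 and 54.1 TPM against 36.0 and 28.9 TPM (a log2 difference of -1.19, SE 0.55). Both genes, whose products restrict dorsal fates, were lower in both KD libraries, while vent was low and overlapped (7.20 and 1.27 against 3.64 and 0.466 TPM). The posterior and ventral homeobox gene eve1 was 209 and 121 TPM against 59.1 and 22.4 TPM (a log2 difference of -2.09, SE 0.58). The cdx4 level, a caudal-type gene of the posterior body, was 321 and 326 TPM against 202 and 71.5 TPM (a log2 difference of -1.42, SE 0.52). The 2 controls of cdx4 were nearly equal, and both KD libraries lay below them.

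Further members of the list are active in ectoderm, such as the homeobox genes msx1b and msx1a of the neural plate border. The msx1b level was 71.6 and 39.7 TPM in control-MO and 16.0 and 17.3 TPM in KD PGCs (a log2 difference of -1.62, SE 0.59), and msx1a was 20.2 and 11.8 TPM against 1.97 and 1.62 TPM (a log2 difference of -2.56, SE 0.80). The gata3 level, an ectodermal GATA factor, was 25.2 and 12.09 TPM against 4.31 and 1.51 TPM (a log2 difference of -2.34, SE 0.82). None of these overlapped, whereas gata2a did (154 and 26.9 against 40.5 and 13.7 TPM). The apolipoprotein gene apoc1, which is also a yolk syncytial layer gene, was 2282 and 735 TPM against 310.4 and 254 TPM (a log2 difference of -2.20, SE 0.50).

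Id genes, a common readout of BMP signalling, differed less. Id proteins bind basic helix-loop-helix factors and keep them from DNA. The id1 level was 1169 and 842 TPM in control-MO and 606 and 826 TPM in KD PGCs (a log2 difference of -0.49, SE 0.36); both KD libraries were lower, but KD replicate 2 lay close under control-MO replicate 2. The id3 level was 121 and 57.9 TPM against 67.8 and 33.2 TPM (a log2 difference of -0.80, SE 0.58), with overlap, as was id2a (23.0 and 11.4 against 37.1 and 9.84 TPM). The median over the 4 Id genes tested was -0.35, and 0.23 without control-MO replicate 1. One listed target stood the other way: her9, a helix-loop-helix repressor, was 5.17 and 6.72 TPM in control-MO and 17.8 and 40.7 TPM in KD PGCs (a log2 difference of 2.02, SE 0.72).

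**Figure D2:**
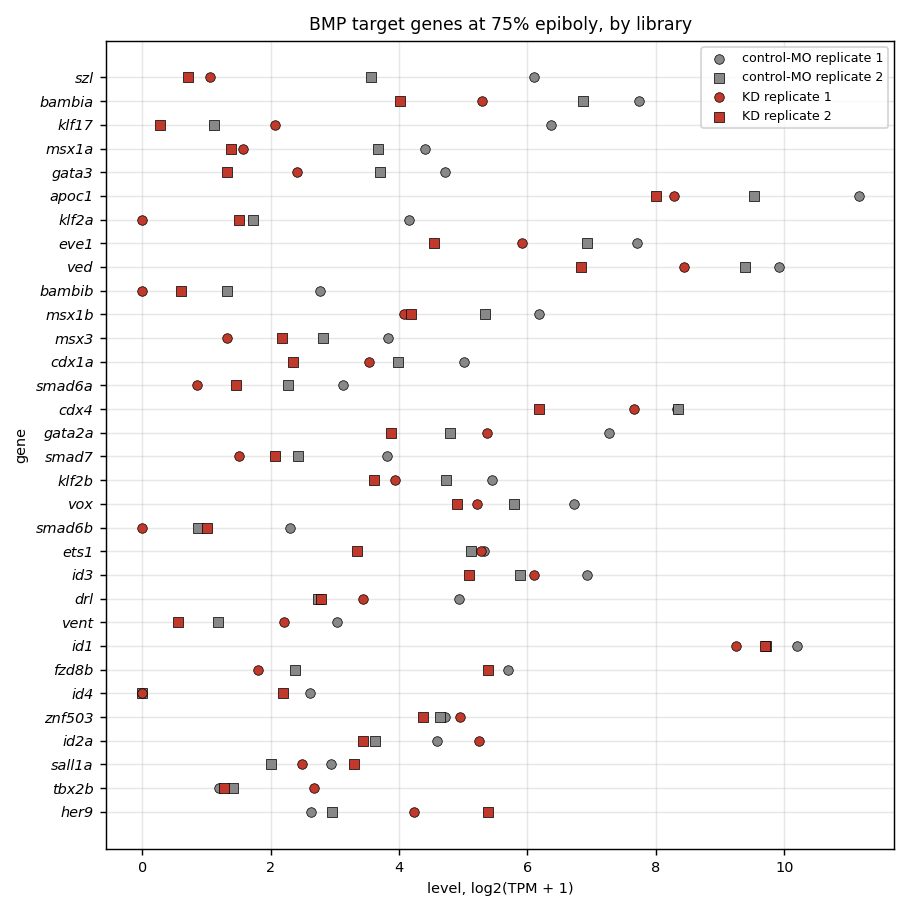
Level, log2(TPM + 1), of the 32 BMP target genes tested in the 2 control-MO (grey) and 2 KD (red) libraries, ordered by the difference between the groups; circles are replicate 1 and squares replicate 2, and points can lie on each other. In 18 genes both red points lie left of both grey points, and her9 at the bottom is the gene with both to the right.

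Most surface ectoderm genes had lower means in the KD, but this rested in part on 1 control library. Of 25 non-neural and epidermal genes tested, 23 were lower and 2 higher in the KD, and in 8 (32.0%, against 14.9% of all genes) both KD libraries lay below both controls. The list median was -1.41, and 0.20 without control-MO replicate 1. The dlx3b level, a homeobox gene of the non-neural ectoderm and placodes, was 55.6 and 27.6 TPM in control-MO and 0.997 and 7.23 TPM in KD PGCs (a log2 difference of -3.31, SE 0.84). The tp63 level, the master regulator of epidermis, was 16.3 and 15.4 TPM against 3.05 and 0.649 TPM (a log2 difference of -2.71, SE 0.84). For tp63 the 2 controls were nearly equal and both KD libraries lay far below them. The keratin genes were mainly a matter of control-MO replicate 1: krt4 stood at 350.2 and 10.7 TPM in control-MO and 23.9 and 8.11 TPM in KD PGCs, and krt8 at 514 and 12.7 TPM against 65.1 and 8.53 TPM, both with overlap.

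The enveloping layer, the outer epithelium of the embryo, depended on the same control library. Part of its list is shared with the epidermal list, krt4, krt5, krt8, krt92 and krt18a.1 among the shared genes. All 16 genes tested had a lower mean in the KD (median -1.45). Only 1 of them was lower without overlap (6.25%, against 14.9% of all genes). Without control-MO replicate 1 the median was 0.45, and without control-MO replicate 2 it was -3.59. The gene without overlap was icn, which encodes the epithelial calcium-binding protein Ictacalcin, and it had the smallest unadjusted p of all genes named. It stood at 50.5 and 13.8 TPM in control-MO and was listed at 0 in both KD libraries.

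Several abundant yolk and endoderm genes were lower in both KD libraries. The apoeb level, an apolipoprotein of the yolk syncytial layer, was 2067 and 1163 TPM in control-MO and 553 and 471 TPM in KD PGCs (a log2 difference of -1.60, SE 0.38). The yolk list (13 tested, 11 lower) had a median of -1.27, which became 0.09 without control-MO replicate 1. The sox32 level, the switch gene of zebrafish endoderm, was 148 and 17.9 TPM against 2.60 and 2.81 TPM (a log2 difference of -3.84, SE 0.93). Its target sox17 was 28.7 and 5.76 TPM against 0 and 0.902 TPM (a log2 difference of -3.36, SE 0.98), and cxcr4a, a chemokine receptor of endoderm and mesoderm, was 177 and 27.4 TPM against 15.5 and 7.54 TPM (a log2 difference of -2.58, SE 0.84). The groups did not overlap in these 3 genes, although control-MO replicate 1 was several times replicate 2 in each. The endoderm list (11 tested, 9 lower) had a median of -1.56, and -0.21 without control-MO replicate 1. In 3 of the 11 (27.3%, against 14.9% of all genes) both KD libraries lay below both controls. The whole list summed to 832 and 157 TPM in control-MO and 130 and 251 TPM in KD libraries, so these sums overlapped. In the knockout experiment sox32 and sox17 were at or near 0 in control and cKO PGCs alike, with a summed level of at most 3.40 TPM.

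The dorsal side of the embryo set the 2 KD libraries apart from each other. Of 25 organizer and axial mesoderm genes tested, 17 had a higher mean on the log2 scale in the KD and 8 a lower one (median 0.46). Without KD replicate 2 the median was -1.63, and without KD replicate 1 it was 1.67, so its direction was set by the library. The notochord gene noto was 16.8 and 12.3 TPM in control-MO and 4.29 and 144 TPM in KD PGCs. The Nodal inhibitor gene lft2 was 9.08 and 1.97 TPM against 0 and 106 TPM. The Hedgehog ligand gene shha, named after its values were seen, was 0.853 and 0 TPM against 0 and 13.7 TPM. In each of these, KD replicate 2 was the highest of the 4 libraries and KD replicate 1 was not above any control.

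Not every axial gene followed that split. The tbxta level, the Brachyury gene of notochord and tailbud, was 208 and 199.6 TPM in control-MO and 289 and 150.4 TPM in KD PGCs (a log2 difference of 0.03, SE 0.45). Here KD replicate 1 was the highest library and KD replicate 2 the lowest. The organizer gene gsc was 29.4 and 8.81 TPM against 0 and 11.6 TPM, below control-MO replicate 1 in both KD libraries. The Nodal ligand gene ndr1 was 16.6 and 1.57 TPM against 0 and 0.251 TPM, lower in both. The Nodal co-receptor gene tdgf1 was 17.0 and 7.91 TPM against 27.4 and 27.2 TPM (a log2 difference of 1.16, SE 0.66). It was the 1 gene of the list with both KD libraries above both controls, against 7.37% of all genes.

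**Figure D3:**
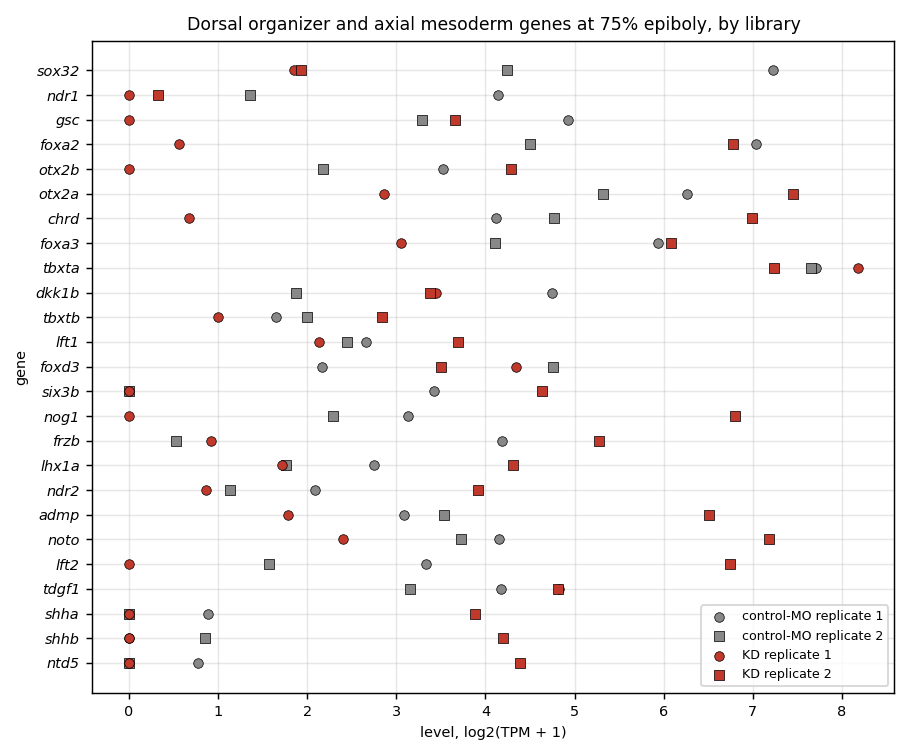
Level, log2(TPM + 1), of the 25 dorsal organizer and axial mesoderm genes tested, with control-MO libraries in grey and KD libraries in red; circles are replicate 1 and squares replicate 2, and points at 0 can lie on each other. For noto, lft2, chrd, nog1 and admp the red square lies right of both grey points and the red circle left of them, so the 2 KD libraries differ more from each other than from the controls.

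Neural genes showed the same contrast between KD libraries. Over the 26 genes tested the median was -0.20, and 1.02 without KD replicate 1 and -1.16 without KD replicate 2. The forebrain and midbrain gene otx2a was 75.8 and 38.9 TPM in control-MO and 6.26 and 175 TPM in KD PGCs, and sox19a, an early neural SoxB1 gene, was 75.1 and 72.0 TPM against 42.4 and 189 TPM. Again KD replicate 2 was highest and KD replicate 1 lowest. The hindbrain gene hoxb1b went another way, with 14.7 and 17.5 TPM against 4.74 and 5.91 TPM (a log2 difference of -1.44, SE 0.72) and no overlap.

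The median of the paraxial mesoderm genes lay below 0 whichever library was left out. Of 19 genes tested, 18 were lower and 1 higher in the KD. The groups did not overlap in 8 of the lower genes (42.1% of the list, against 14.9% of all genes). They did not overlap in the 1 higher gene either (against 7.37% of all genes higher without overlap). The median was -0.86 and ranged from -1.16 without control-MO replicate 2 to -0.48 without KD replicate 2. The segmentation clock gene her7 was 54.9 and 92.1 TPM in control-MO and 11.3 and 14.6 TPM in KD PGCs (a log2 difference of -2.38, SE 0.59). Its partner her1 was 68.8 and 96.3 TPM against 67.0 and 29.5 TPM, a smaller separation. The Notch ligand gene dlc was 6.27 and 5.78 TPM against 0.386 and 0.910 TPM (a log2 difference of -2.11, SE 0.87), and msgn1, a presomitic mesoderm factor, 68.1 and 91.6 TPM against 49.4 and 17.99 TPM (a log2 difference of -1.37, SE 0.60). The T-box gene tbx16, the best expressed member, was 267 and 346 TPM against 242 and 141 TPM. In each of these genes both KD libraries lay below both controls.

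Among other signals of the gastrula, most Wnt genes had lower means in the KD. Of 22 Wnt genes, 18 were lower and 4 higher in the KD, 9 of them lower without overlap (40.9%, against 14.9% of all genes). The median was -0.54, and -0.16 without control-MO replicate 1. The ligand gene wnt5b was 20.5 and 23.1 TPM in control-MO and 10.1 and 9.12 TPM in KD PGCs, and the Wnt target sp5l was 192 and 168 TPM against 65.6 and 121 TPM. FGF genes were balanced in direction (10 lower and 8 higher, median -0.06). Both KD libraries lay above both controls in 5 of 18, against 7.37% of all genes, and below them in 2 (11.1%, against 14.9%). The phosphatase gene dusp1 was 21.8 and 12.3 TPM against 45.8 and 41.0 TPM, higher in both KD libraries (a log2 difference of 1.35, SE 0.60). Nodal genes were balanced in direction as well (median 0.08 over 15). Both KD libraries lay above both controls in 3 of 15, against 7.37% of all genes, and below them in 1 (6.67%, against 14.9%). Retinoic acid and hox genes had a median of -0.39 over 12 (-0.10 without control-MO replicate 1). The retinoic acid binding protein gene crabp2b was 83.9 and 70.7 TPM against 11.8 and 47.4 TPM (a log2 difference of -1.65, SE 0.67). Lateral plate, blood and endothelium genes had a median of -0.41 over 11 (0.65 without control-MO replicate 1). Of the 11, 7 were lower and 4 higher in the KD, and 2 were lower without overlap (18.2%, near the 14.9% of all genes). Among them pax8, a kidney and ear regulator, was 7.81 and 5.67 TPM in control-MO and listed at 0 in both KD libraries. The embryonic globin gene hbbe1.1 was 6.09 and 0.399 TPM against 92.4 and 2.27 TPM, high in KD replicate 1 alone.

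Germ plasm and germ cell fate genes did not separate the groups. Of 32 genes tested, 15 were lower and 17 higher in the KD, with a median of 0.07, and of -0.35 without KD replicate 1 and 0.61 without KD replicate 2. The nanos3 level, which PGCs need to survive, was 379 and 391 TPM in control-MO and 669.6 and 215 TPM in KD PGCs (a log2 difference of -0.02, SE 0.51). The ddx4 level, the Vasa helicase gene, was 106 and 217 TPM against 225 and 162 TPM (a log2 difference of 0.33, SE 0.48), and tdrd7a, which encodes a germ granule protein, was 58.9 and 158 TPM against 149.7 and 75.8 TPM. For all 3, KD replicate 1 was above and KD replicate 2 below at least 1 control. The piRNA pathway, which silences transposons, had a median of 0.01 over 17 genes (-0.61 without KD replicate 1 and 0.61 without KD replicate 2).

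A few germ plasm genes were higher in both KD libraries. The ca15b level, a germ plasm RNA, was 96.1 and 66.0 TPM in control-MO and 266 and 139 TPM in KD PGCs (a log2 difference of 1.26, SE 0.49). The RNA-binding protein gene dazl was 29.1 and 10.9 TPM against 53.9 and 44.4 TPM (a log2 difference of 1.40, SE 0.64). The brip1 level, which encodes a DNA repair helicase, was 3.85 and 9.34 TPM against 23.4 and 36.7 TPM, without overlap. These 3 and rgs14a (1.70 and 1.82 against 9.60 and 3.76 TPM) were the 4 genes of the list with both KD libraries above both controls, beside 7.37% of all genes. In 3 other genes of the list, sox17 among them, both KD libraries lay below both controls (9.38%, against 14.9% of all genes).

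Oocyte-derived transcripts, most of which are being cleared at this stage, followed the germ plasm pattern. The gene ca15b belongs to both lists and to the summed germ cell markers, so they are not independent. The median over the 23 maternal transcripts tested was 0.09, with 1.098 without KD replicate 2 and -0.48 without KD replicate 1. The oocyte kinase gene mos was 12.7 and 6.18 TPM in control-MO and 31.9 and 23.4 TPM in KD PGCs (a log2 difference of 1.52, SE 0.68), higher in both KD libraries. The linker histone gene h1m was 531 and 605 TPM against 1214 and 239 TPM, highest in KD replicate 1 and lowest in KD replicate 2. Over the same libraries the summed germ cell markers were also highest in KD replicate 1, and the part of PGC purity in this was not tested.

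Most migration genes had lower means in the KD. Of 25 tested, 20 were lower and 5 higher in the KD. Both KD libraries lay below both controls in 9 (36.0%, against 14.9% of all genes) and above them in 1 (against 7.37% of all genes). The median was -0.38, and -0.07 without KD replicate 2. The chemokine gene cxcl12a, which the cells around the PGCs express, was 65.0 and 20.7 TPM in the control-MO libraries and 20.2 and 11.3 TPM in the KD libraries (a log2 difference of -1.22, SE 0.71). Its scavenger receptor gene ackr3b was 104 and 9.11 TPM against 2.43 and 9.29 TPM, high in control-MO replicate 1 alone. The receptor that PGCs use, cxcr4b, named after its values were seen, was 61.7 and 13.8 TPM against 45.1 and 38.7 TPM, with overlap.

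Cell cycle genes had small median differences between the groups. Of 63 G2/M and mitosis genes, 44 were lower and 19 higher in the KD (median -0.18, and 0.03 without KD replicate 2). Of the 63, 18 were lower without overlap (28.6%, against 14.9% of all genes) and 3 higher without overlap (against 7.37% of all genes). Of 68 G1/S and replication genes, 51 were lower and 17 higher in the KD (median -0.27, and 0.24 without KD replicate 2). Of the 68, 13 were lower without overlap (19.1%, near the 14.9% of all genes) and 1 higher without overlap (against 7.37% of all genes). The replication clamp gene pcna was 1011 and 1080.0 TPM in control-MO and 959 and 819.9 TPM in KD PGCs (a log2 difference of -0.24, SE 0.33). The mitotic cyclin gene ccnb1 was 567 and 539 TPM against 783 and 233 TPM (a log2 difference of -0.37, SE 0.52). The pcna groups did not overlap but lay close together (log2 difference 0.06 after quantile normalization), and for ccnb1 the 2 KD libraries lay on either side of the controls.

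Single members of the mitotic list stood out in both directions. The kinetochore gene spc24 was 119 and 109.9 TPM in control-MO and 31.5 and 66.0 TPM in KD PGCs (a log2 difference of -1.31, SE 0.53), and the spindle checkpoint gene bub3 was 132 and 140.2 TPM against 59.3 and 79.2 TPM (a log2 difference of -0.98, SE 0.46). The birc5b level, which encodes a Survivin of the chromosomal passenger complex, was 36.7 and 6.34 TPM against 334 and 113 TPM (a log2 difference of 3.55, SE 0.79). It was the gene with the smallest unadjusted p among those higher in the KD. The CDK inhibitor genes overlapped between the groups in all 5 cases tested.

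Nearly all ribosomal protein genes had lower means in the KD. Of 82 tested, 80 were lower and 2 higher in the KD, and in 64 (78.0%, against 14.9% of all genes) both KD libraries lay below both controls. The median was -0.52, and -0.30 after quantile normalization. For KD replicate 1 against control-MO replicates 1 and 2 it was -0.83 and -0.50, where all genes had 0.17 and 0.48. For KD replicate 2 it was -0.51 and -0.19, close to the -0.57 and -0.20 of all genes. The rps13 level was 860.3 and 767 TPM in control-MO and 334 and 439 TPM in KD PGCs (a log2 difference of -1.08, SE 0.36), and the more abundant rps20 was 4060.1 and 2976 TPM against 1747 and 2278 TPM (a log2 difference of -0.80, SE 0.32). The list's share of all TPM was 6.13 and 4.89% in control-MO and 3.38 and 4.23% in KD libraries. In the cKO at the same stage 76 of 82 were lower (median -0.17, against -0.07 over all genes), and in the KD at 1 day post-fertilization (1 dpf) 80 of 82 were lower (median -0.45, close to the -0.38 over all genes).

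Other housekeeping groups had smaller medians. Mitochondrially encoded genes had a median of -0.20 over 13, nuclear oxidative phosphorylation genes -0.24 over 92, proteasome genes -0.28 over 48 (-0.08 without KD replicate 2), glycolysis genes 0.32 over 18 (-0.28 without KD replicate 1) and zinc finger genes -0.18 over 251. The zinc finger median was 0.06 without KD replicate 1, 0.02 without control-MO replicate 1 and -0.38 without KD replicate 2. Both KD libraries lay below both controls in 46.2% of mitochondrially encoded, 32.6% of oxidative phosphorylation and 31.2% of proteasome genes, against 14.9% of all genes. The share was 5.56% for glycolysis, 14.3% for zinc finger and 16.7% for heat shock chaperone genes. Heat shock chaperone genes had a median of -0.08 over 24 (-0.42 without KD replicate 1). Within them the small heat shock gene hspb1, the most abundant gene named here, was 10589 and 9796 TPM in control-MO and 3260.3 and 9714 TPM in KD PGCs, lowest in KD replicate 1. The mitochondrial co-chaperonin gene hspe1 was 1300.4 and 1296 TPM against 848 and 432 TPM, lower in both (a log2 difference of -1.10, SE 0.39).

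Genes of pluripotency and genome activation had lower means in the KD in 20 of 24 cases, with a median of -0.67. Both KD libraries lay below both controls in 11 (45.8%, against 14.9% of all genes) and above them in 2 (against 7.37% of all genes). Part of this list is shared with the BMP target list. The Oct4-like gene pou5f3 was 332 and 259.6 TPM in control-MO and 255 and 232 TPM in KD PGCs, with both KD libraries just below both controls. The apelin receptor gene aplnrb was 128 and 72.7 TPM against 55.0 and 26.2 TPM (a log2 difference of -1.32, SE 0.57).

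**Figure D4:**
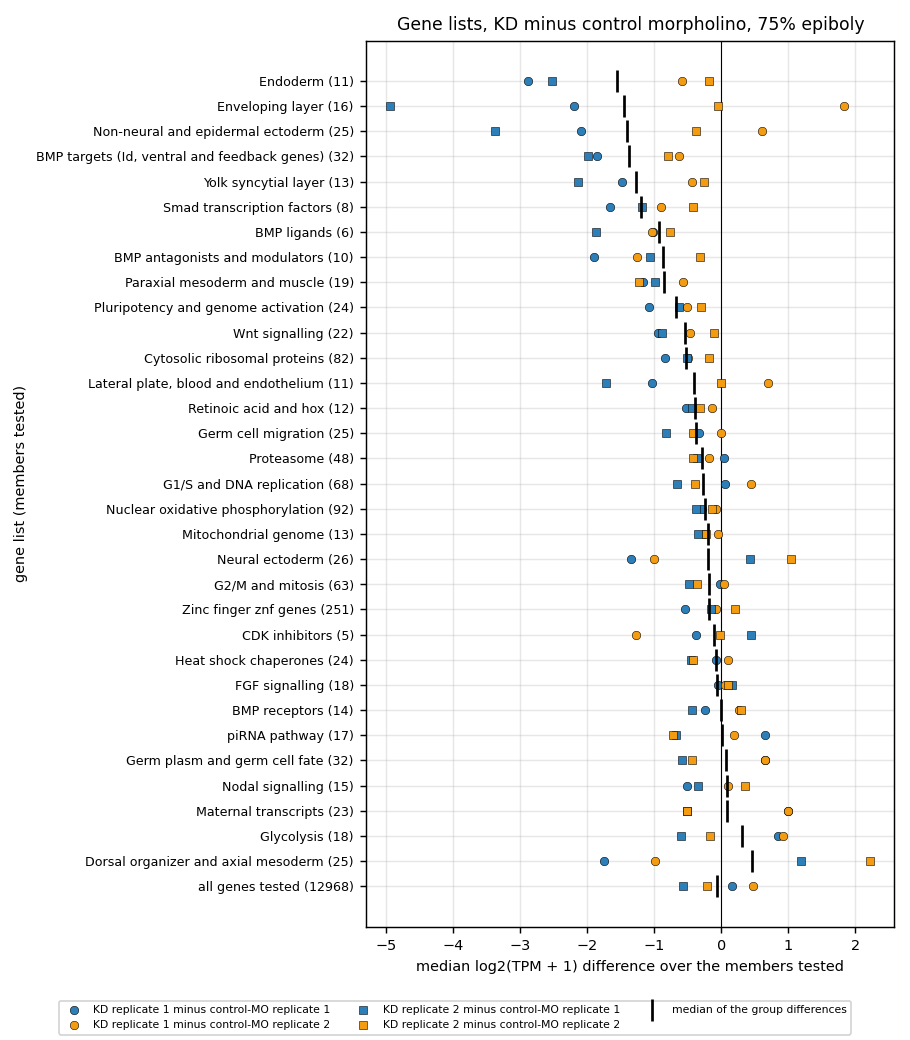
Median log2(TPM + 1) difference over the members of each gene list, for each KD library against each control-MO library (coloured points) and for the groups (black bars), with the number of members tested in brackets and all genes at the bottom. BMP targets and paraxial mesoderm lie left of 0 in all 4 pairs, as do several other lists, among them Smads, endoderm, Wnt and ribosomal protein genes. Organizer and neural genes are right of 0 for KD replicate 2 and left of it for KD replicate 1. The enveloping layer is far left against control-MO replicate 1 only.

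Outside the lists, the genes with the smallest unadjusted p among those lower in both KD libraries included kctd15a, which encodes an inhibitor of neural crest formation, at 19.6 and 9.96 TPM in control-MO and 0 and 0.739 TPM in KD PGCs. The fatty acid binding protein gene fabp1b.1 was 38.8 and 12.4 TPM against 0 and 2.99 TPM, and tns3.2, a tensin gene, was 148 and 48.1 TPM against 12.6 and 21.9 TPM. Thioredoxin (txn) was 9.59 and 13.0 TPM against 0 and 0.721 TPM. A further gene of this rank, klhl13, has 2 gene IDs in the table, so its level is uncertain.

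Among genes higher in both KD libraries, the metallothionein gene mt2 was 121 and 85.9 TPM in control-MO and 489 and 199 TPM in KD PGCs (a log2 difference of 1.60, SE 0.51). The cmc4 level, which encodes a small mitochondrial protein, was 0.593 and 2.54 TPM against 17.7 and 22.8 TPM (a log2 difference of 3.15, SE 0.82). The thymosin gene tmsb5 was 110.1 and 72.7 TPM against 396 and 142 TPM, and the RNA-binding protein gene rbpms2a was 5.37 and 3.91 TPM against 24.6 and 13.2 TPM. In mt2 and tmsb5 KD replicate 1 was well above KD replicate 2, and in cmc4 the 2 KD libraries were close.

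The KD was then set beside the germline-restricted conditional knockout (cKO) at the same stage, which asks whether loss of smad1 in the whole embryo and in germ cells alone differ. Its samples were 3 smad1-cKO and 3 control (WT) libraries of sorted PGCs in Holtfreter's water, with smad1 at 9.68, 13.5 and 17.9 TPM in control and 2.68, 1.11 and 5.09 TPM in cKO PGCs. The difference between the effects was tested gene by gene as KD minus control-MO less cKO minus control. Of 13236 genes, 0 (0.0%) passed (limma, Benjamini-Hochberg), with 87 lower (0.657%) and 88 higher (0.665%) at an unadjusted p under 0.05. For smad1 itself the difference between the effects was 0.66 (SE 0.97).

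BMP targets had a lower median difference in the KD than in the cKO. In the cKO 20 of 31 targets were lower, with a median of -0.23, beside 7379 of 13006 genes and a median of -0.07 over all genes. The difference between the effects was below 0 for 22 of 31 targets, with a median of -1.12, and 8 of them reached an unadjusted p under 0.05. Over all genes that difference was below 0 for 6562 of 13236, with a median of 0.01. The bambia level was 83.7, 189 and 189.7 TPM in control and 201, 143 and 128 TPM in cKO PGCs, so the groups overlapped, and the effect in the KD lay below that in the cKO by -2.75 (SE 0.70). The ved level was 316, 645 and 602 TPM in control and 483, 422 and 514 TPM in cKO PGCs, with a difference between the effects of -1.94 (SE 0.63). For gata3 the levels were 22.3, 19.9 and 11.1 TPM and 78.4, 17.8 and 29.5 TPM, and the difference between the effects was -3.32 (SE 0.96). The limma adjusted p was 1.00 for each of these genes.

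The Smads and Id genes gave a mixed picture. The smad9 level was 42.2, 26.1 and 36.1 TPM in control and 52.0, 21.2 and 48.5 TPM in cKO PGCs, and the difference between the effects was -2.36 (SE 0.77). The id1 level was 651, 658 and 607 TPM in control and 693, 612 and 804 TPM in cKO PGCs, with a difference between the effects of -0.62 (SE 0.43). The id3 level was 53.7, 90.3 and 126 TPM in control and 59.3, 34.4 and 42.2 TPM in cKO PGCs, where its log2 difference of -0.93 was close to the -0.80 of the KD. The difference between the effects was 0.12 (SE 0.71). In the other direction, birc5b was 38.2, 44.5 and 24.0 TPM in control and 23.1, 58.7 and 9.09 TPM in cKO PGCs, and the effect in the KD lay above that in the cKO by 4.09 (SE 1.08). The 2 experiments differ in treatment, in the cells that lose smad1 and in the summed level of germ cell markers, and these cannot be told apart here.

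**Figure D5:**
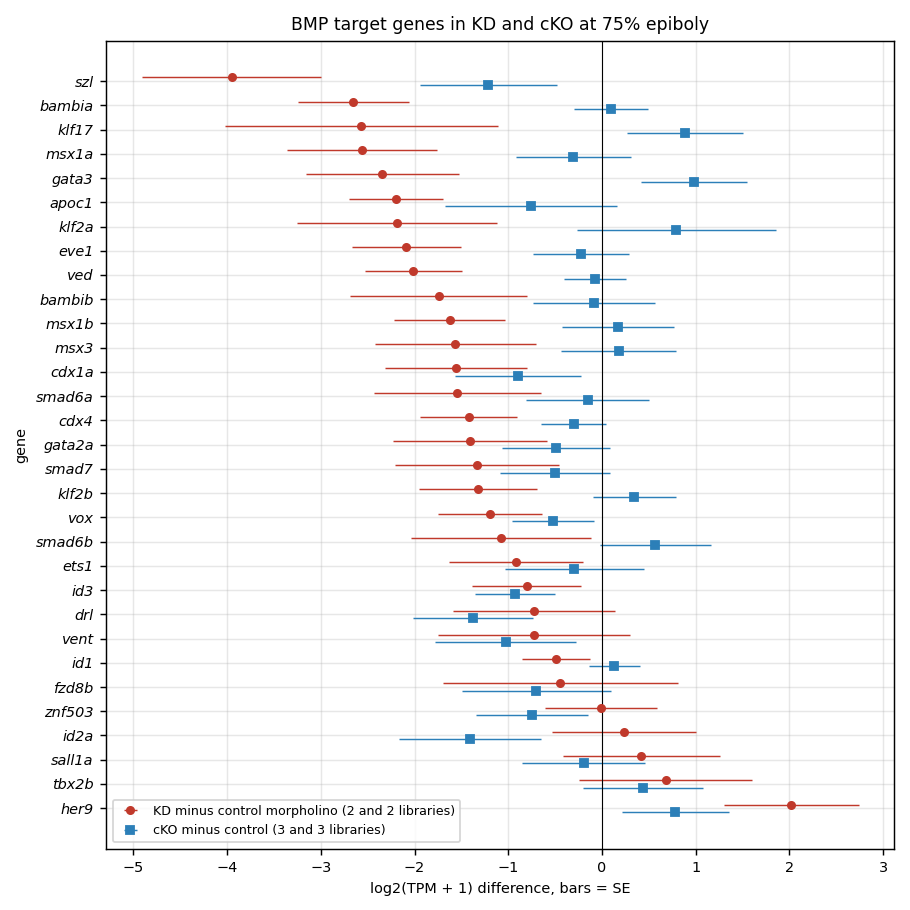
Log2(TPM + 1) difference of 31 BMP target genes in the KD against control-MO (red circles, 2 and 2 libraries) and in the cKO against control (blue squares, 3 and 3 libraries) at 75% epiboly, with bars of 1 SE. Red points lie left of 0 for all but 4 genes at the bottom, blue points scatter about 0, and for bambia, ved and gata3 the bars are well apart.

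A later time point of the same experiment allowed the KD effect to be followed in 2 control-MO and 2 KD libraries at 1 dpf. Of 16311 genes, 0 (0.0%) passed the test of a difference in effect between 75% epiboly and 1 dpf (limma, Benjamini-Hochberg). At an unadjusted p under 0.05 there were 573 higher (3.51%) and 122 lower (0.748%). In simulated data this test called 0% of genes with a true log2 difference of 3, so genes that did not pass may still differ. The median difference of all genes was 0.30, and values are to be read relative to it. Of the BMP targets, 24 of 32 had a lower effect at 75% epiboly (median -0.74), beside 5608 of the 16311 genes.

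No single gene passed that test, and the values of a few at 1 dpf are given beside it. At 1 dpf bambia was 44.6 and 36.3 TPM in control-MO and 74.0 and 42.3 TPM in KD PGCs, so the groups overlapped, and the effect at 75% epiboly differed from it by -3.12 (SE 0.79, limma adjusted p = 0.731). The ved level was 18.4 and 14.9 TPM in control-MO and 1.75 and 2.66 TPM in KD PGCs at 1 dpf, lower in both KD libraries as at 75% epiboly. The difference between stages was 0.46 (SE 0.79, limma adjusted p = 1.000). The smad9 level at 1 dpf was 64.0 and 44.7 TPM against 43.9 and 24.0 TPM, again lower in both KD libraries. The difference between stages was -1.51 (SE 0.81, limma adjusted p = 1.000). The birc5b level was 6.88 and 6.07 TPM in control-MO and 1.02 and 0.511 TPM in KD PGCs at 1 dpf, the reverse of the order at 75% epiboly, with a difference between stages of 5.65 (SE 1.14, limma adjusted p = 0.695). The dazl level was 200.1 and 121 TPM against 80.4 and 22.3 TPM at 1 dpf, with a difference between stages of 3.25 (SE 0.94, limma adjusted p = 0.799), so its order was reversed too.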

How the data were processed

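RNA of sorted zebrafish PGCs had been amplified as full-length cDNA and made into libraries with a transposase kit, per the labels' protocols. The authors deposited TPM (a share of each library scaled by transcript length) for each gene and library, which carry no depth. STAR 2.7.10b, StringTie 2.2.1 and the build GRCz11 (danRer11) are named in the submitters' processing notes, which give no roles. In the table, 896 features had no symbol and 533 symbols belonged to more than 1 gene ID.

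The test scale was log2(TPM + 1), with the pseudocount of 1, after dropping genes whose mean was under 1 TPM in the libraries fitted. Groups, and differences between effects, were compared with limma 3.58.1 with an intensity trend (R 4.3.3, two-sided, Benjamini-Hochberg, threshold 0.05), after the fits had been tested on simulated data. Figures used matplotlib 3.10.9 under Python 3.11.15. Each difference between experiments was taken within each deposited table first. Each comparison was repeated with another pseudocount (0.1), without the filter or with one at 5 TPM, and with quantile normalization or TMM-style scaling. Each was also repeated without the trend, and without each library of the main comparison of KD and control-MO PGCs in turn. Runs without ribosomal and mitochondrial features, and with replicate number as a blocking term, were made for that main comparison only. The tests of a difference between effects were not repeated in these last ways.

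The 33 gene lists and the comparison were chosen with earlier results of these data known. Named genes are smad1, smad5 and smad9, the BMP lists, from each other list at most 6 members chosen by p and 4 chosen by level, the 15 higher and 15 lower genes by p without overlap and with a mean of at least 5 TPM, and up to 8 genes per difference test. Of the genes given with values of their own, shha and cxcr4b stand outside this rule and were chosen after their values were seen; genes of the cell type marker lists are named as markers only. The knockout at 1 dpf and the amplicon tables were not used here. Sequences and promoter motifs were not analysed here, and 1 further gene list is not reported here.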

Additional observations from a re-analysis of the deposited data

How the results depend on the processing

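With 2 libraries a group and unknown depth, low genes and small differences could not be resolved. Large differences could be missed too. In simulated data with a true log2 difference of 3, the KD comparison called 57.6% of the changed genes, with 5 false calls in that run. The test of KD against cKO effects called 15.2% of such genes, and the test of 75% epiboly against 1 dpf called 0%. The simulation drew independent noise for each gene. It gave true differences only to the better expressed genes, so recovery among the low genes was not measured. It held none of the shifts between whole libraries seen in the data, so real recovery may be lower. Counts of called genes in the KD comparison were 0 under every alternative run except the replicate block. When replicate number entered as a block, 27 genes passed (8 higher and 19 lower, ved, bambia, szl and birc5b among them). Each group holds both replicate numbers, so the block leaves every log2 difference as it was and changes only the error estimate. Same-numbered libraries deviated together with a correlation of only 0.078 over 2 pairs. The labels give the number no meaning, so the libraries share only a number. The test of KD against cKO effects called 9 genes with no filter, and 0 to 1 when 1 library was left out (1 without control-MO replicate 1). The test of 75% epiboly against 1 dpf called 1 gene with a pseudocount of 0.1 and 1 with a minimum mean of 5 TPM. Without a filter the list medians were -0.64 for Smads, 0.082 for BMP ligands and -0.29 for yolk genes, and with a minimum mean of 5 TPM 0.059 for FGF genes.

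Leaving out 1 library moved the median of all genes from -0.06 to between -0.40 (without KD replicate 1) and 0.35 (without KD replicate 2). List medians moved with it or against it, organizer and neural genes against it for either KD library. The ranges were -1.57 to -0.64 for Smads, -1.50 to -0.45 for BMP ligands, -0.37 to 0.37 for receptors, -1.03 to 0.23 for Id genes, -1.56 to 0.091 for yolk, -1.63 to 1.67 for organizer, -1.16 to 1.02 for neural, -1.16 to -0.48 for paraxial mesoderm, -0.13 to 0.29 for FGF, -0.44 to -0.10 for retinoic acid and hox, -0.49 to 0.24 for G1/S, -0.48 to 1.098 for maternal, -0.42 to 0.18 for heat shock and -0.34 to -0.081 for mitochondrially encoded genes.

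Scaling turned the sign of small medians: TMM-style scaling gave 0.06 for receptors, 0.01 for FGF and -0.03 for piRNA genes, and quantile normalization gave 0.01 for receptors and -0.13 for piRNA genes. Quantile normalization also gave -0.062 for Id genes and -0.30 for ribosomal protein genes, and TMM-style scaling -0.94 for endoderm genes. Among single genes, quantile normalization gave 0.062 for pcna and 0.26 for nanos3, and TMM-style scaling 0.030 for nanos3. With 1 library left out, the sign turned for ddx4 (-0.18 without control-MO replicate 1, up to 0.84), smad5 (-0.23 without control-MO replicate 2 and -0.55 without KD replicate 1, up to 0.61), ccnb1 (0.50 without KD replicate 2, down to -1.24), nanos3 (0.0020 without control-MO replicate 2 and 0.80 without KD replicate 2, down to -0.84), tbxta (-0.44 without KD replicate 1, up to 0.50) and the difference between the effects for id3 (-0.40 without control-MO replicate 2 and -0.38 without KD replicate 1, up to 0.65). The cause was not tested.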

Other observations

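Some genes were named by the tests of a difference between effects. The trappc2l gene, which encodes a subunit of a vesicle trafficking complex, stood at 39.8 and 33.0 TPM in control-MO and 14.3 and 1.04 TPM in KD PGCs at 75% epiboly. In the knockout experiment it stood at 7.39, 0.425 and 0.323 TPM in control and 19.1, 24.7 and 11.9 TPM in cKO PGCs. The order of the groups was thus reversed, without overlap in either experiment, and the difference between the effects was -5.64 (SE 1.29), with a limma adjusted p of 1.00. The histone gene hist2h2l had the same order of groups, with 33.0 and 7.29 TPM against 3.81 and 4.86 TPM in the KD experiment and 4.61, 9.12 and 4.09 TPM against 46.0, 19.1 and 9.56 TPM in the knockout experiment. The difference between its effects was -3.36 (SE 1.08).

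Between the stages, hoxb1b was 14.7 and 17.5 TPM in control-MO and 4.74 and 5.91 TPM in KD PGCs at 75% epiboly, but 7.80 and 6.50 TPM against 43.7 and 30.3 TPM at 1 dpf, a difference between stages of -3.64 (SE 0.73, limma adjusted p = 0.695). The oxidoreductase gene wwox was 2.08 and 1.86 TPM against 6.58 and 3.92 TPM at 75% epiboly and 17.8 and 15.1 TPM against 1.76 and 1.61 TPM at 1 dpf, a difference between stages of 3.73 (SE 0.81, limma adjusted p = 0.695). The muscle genes pvalb1 and tnnt3b were listed at 0 in all 4 libraries at 75% epiboly. At 1 dpf pvalb1 was 62.8 and 248 TPM in control-MO and 1.32 and 6.45 TPM in KD libraries, and tnnt3b was 22.3 and 62.2 TPM against 0.749 and 0.676 TPM.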
